A study of Mus musculus with 2 samples.

Results

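The clustered protocadherins are cell-surface cadherins encoded by a run of neighbouring genes in the alpha, beta and gamma clusters. The members were the genes whose annotated symbol begins with Pcdha, Pcdhb, Pcdhga, Pcdhgb or Pcdhgc and that have at least 1 protein-coding transcript. The rule found 58 genes with 57 symbols among 55450 annotated genes. They comprised 12 numbered alpha genes, 22 beta genes, 12 gamma A genes, 7 gamma B genes and 5 C-type genes (Pcdhac1, Pcdhac2, Pcdhgc3, Pcdhgc4 and Pcdhgc5). The rule reads symbols and annotation and uses no measured value. Their levels were read in 2 total RNA libraries of cerebral cortex, taken from the left side in B6CASTF1/J males, a hybrid of the C57BL/6 and CAST strains, at 14 days of age and with no treatment named in the labels. The input was 300 ng of RNA per library, with ERCC spike-ins, which are synthetic control RNAs. The libraries are biological replicates 1 and 2 of a single group, so there was no comparison between conditions and no p-value. The labels give each library its own tissue sample but share a single donor entry, and mention 3 males with no word on pooling. The spread between the libraries may therefore not be a spread between animals.

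Each protocadherin gene of the alpha and gamma clusters starts with its own promoter and a large variable exon, which encodes the extracellular cadherin repeats, the membrane span and part of the cytoplasmic tail. That exon is spliced to constant exons at the 3′ end of the cluster, which add the same cytoplasmic end to every alpha or every gamma protein. Beta genes have no constant exons and encode the whole protein in one exon. In single neurons the numbered genes are known to be switched on in different random combinations, while C-type genes are used more uniformly. The proteins form dimers at the cell surface that recognise matching sets on other membranes, and the family is known for self-avoidance of neurites, axon tiling, dendrite branching and survival of interneurons. A tissue library sums over many cells, so a low level can mean few cells with much RNA or many cells with little, and these cannot be told apart here.

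All 58 genes lie on the plus strand of chromosome 18 within 911.7 kb of GRCm38, from 36930184 to 37841873. The alpha cluster spans 257.5 kb (36930184 to 37187661), the beta cluster 259.5 kb (37264938 to 37524479) and the gamma cluster 180.1 kb (37661793 to 37841873). The GENCODE M21 annotation gives the alpha genes common exons of 59 nt (37156155 to 37156213), 89 nt (37159265 to 37159353) and 2712 nt (37184946 to 37187657), and all 14 alpha genes use them. In 5 alpha genes, an alternative form splits the last of these into 102 nt (37184946 to 37185047) and a final exon of 2186 nt (37185476 to 37187661), the shorter-tailed splice form of the alpha constant region. All 22 gamma genes end in common exons of 59 nt (37825021 to 37825079), 89 nt (37833265 to 37833353) and 1971 nt (37839903 to 37841873). A full-length alpha transcript such as Pcdha6-202 therefore holds 2507 nt of its own and 2860 nt in common with the other alpha genes. A full-length gamma transcript such as Pcdhga11-201 holds 2637 nt of its own and 2119 nt in common. These common stretches bear on every alpha and gamma value below, because a read inside them names the cluster but not the gene.

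The symbol Pcdha11 stands for 2 gene identifiers. ENSMUSG00000007440.10 starts at 37005203, and the nearest RefSeq gene start is that of Pcdha10. ENSMUSG00000102206.5 starts at 37010712, nearest to the RefSeq start of Pcdha11. Both are kept apart by identifier here. Pcdhgb8 is annotated as a polymorphic pseudogene, a gene that is intact in some strains only, with 1 protein-coding transcript.

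The libraries held 28248923 and 30848577 expected counts over annotated genes in replicates 1 and 2. The family took 37939 of these in replicate 1, which is 0.134% (95% Wilson interval 0.133% to 0.136%), and 41201 in replicate 2, which is also 0.134% (0.132% to 0.135%). Such intervals cover counting error only. All 4 excitatory and all 6 inhibitory neuron markers exceeded 1 TPM in both libraries. They ranged between Lhx6, of cortical interneurons, at 12.1 and 9.42 TPM, and Slc17a7, the vesicular glutamate transporter of cortical excitatory neurons, at 684 and 741 TPM, a read abundance corrected for transcript length and depth. The libraries differed in markers of neighbouring tissue and of some cell types. Over 8 striatal neuron markers the summed level was 559 TPM in replicate 1 and 158 TPM in replicate 2, and 7 of the 8 differed more than 2-fold. Over 5 choroid plexus markers the sum was 33.8 and 125 TPM, most of it from Ttr. Clic6 of that list went the other way on the count scale (80 and 37 counts), and Kl differed little (1.18 and 1.33 TPM). Over 5 oligodendrocyte markers the sum was 998 and 650 TPM. Defining genes of all 3 lists were present in both libraries: the striatal dopamine receptor gene Drd1 had 30.8 and 8.15 TPM, the choroid plexus transthyretin gene Ttr had 30.4 and 119 TPM, and the myelin gene Mbp had 489 and 317 TPM. The part of these tissues in the protocadherin levels was not tested.

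Almost the whole family was detected. A level of at least 1 TPM in both libraries was reached by 57 of 58 members (98.3%), beside 58.9% of all nuclear protein-coding genes. The exception was Pcdhb1, the first beta gene, with 0.13 TPM in replicate 1 and 0.02 TPM in replicate 2, which correspond to 6 counts and 1 count. Single members were mostly low all the same. The median member had 4.59 TPM in replicate 1 and 4.35 TPM in replicate 2, while the median of the nuclear protein-coding genes at 1 TPM or more in both libraries was 16.0 and 15.9 TPM. Below 10 TPM in both libraries lay 52 of the 58 members, and 4 exceeded 20 TPM in both. The shares of all nuclear protein-coding genes at 10 and 20 TPM were not taken.

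**Figure D1:**
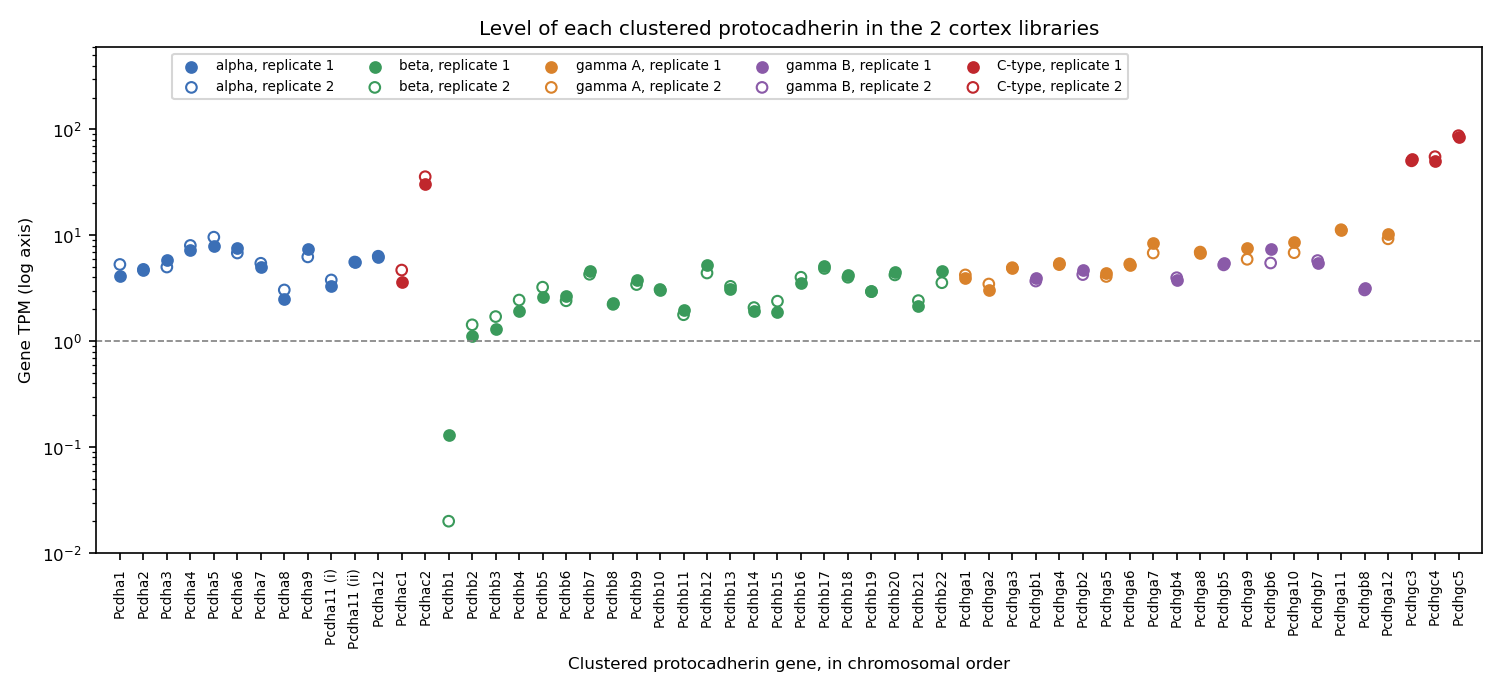
Gene TPM (log axis) of the 58 clustered protocadherins in chromosomal order, filled points for replicate 1 and open points for replicate 2, coloured by set; the dashed line marks 1 TPM, Pcdha11 (i) is ENSMUSG00000007440.10 and Pcdha11 (ii) is ENSMUSG00000102206.5. Pcdhac2, Pcdhgc3, Pcdhgc4 and Pcdhgc5 lie above 30 TPM, the numbered genes from Pcdhb2 on lie between 1.11 and 11.3 TPM in both libraries, and Pcdhb1 is the lowest.

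The C-type genes, which stand at the 3′ ends of the alpha and gamma clusters, gave the highest levels of the family. Pcdhgc5, which encodes a protocadherin known to bind the gamma2 subunit of GABA-A receptors, had 84.4 TPM in replicate 1 and 87.3 TPM in replicate 2, a mean of 85.8 ± 2.09 TPM (SD, n = 2). Pcdhgc4, whose protein is known to be needed for interneuron survival and postnatal life in mice, had 50.6 and 55.3 TPM. Pcdhgc3, whose protein is known to bind Axin1 and to promote dendrite branching, had 52.6 and 50.5 TPM. The ranges of Pcdhgc3 and Pcdhgc4 overlapped, and both lay below Pcdhgc5. Pcdhac2, known for the tiling of serotonergic axons, had 30.6 and 35.8 TPM, below the gamma C-type genes in each library. Against Pcdhgc4 that order turned in the second deposited quantification, described below, where Pcdhac2 had 45.2 and 52.2 TPM and Pcdhgc4 had 22.6 and 31.6 TPM.

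Pcdhac1 did not share these levels. It had 3.65 TPM in replicate 1 and 4.70 TPM in replicate 2, and its mean of 4.18 ± 0.743 TPM (SD, n = 2) placed it 33rd in the family, among the numbered genes. In each library it lay below the median of the numbered alpha genes, which was 5.76 and 5.53 TPM. Pcdhac2, in contrast, exceeded that median 5.31-fold in replicate 1 and 6.47-fold in replicate 2. Relative to the median numbered gamma gene (5.48 and 5.29 TPM), Pcdhgc3 was 9.595-fold higher in replicate 1 and 9.552-fold in replicate 2, Pcdhgc4 was 9.23-fold and 10.5-fold higher, and Pcdhgc5 was 15.4-fold and 16.5-fold higher. The value of Pcdhgc4 depended on the table: in the second quantification it exceeded the median numbered gamma gene 2.88-fold and 4.16-fold. The fourth highest member exceeded the highest numbered gene 2.71-fold in replicate 1 and 3.17-fold in replicate 2 of the gene table. In the second table the ratio of Pcdhgc4, the fourth by its mean, over the Pcdha11 gene with the identifier ENSMUSG00000102206.5, was 0.937 and 1.29, so this gap did not hold there.

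The 5 C-type genes together made 48.3 ± 1.39% of the summed family TPM (SD, n = 2), with 47.3% in replicate 1 and 49.3% in replicate 2. The gamma cluster as a whole had 302 and 299 TPM in replicates 1 and 2, the alpha cluster 102 and 111 TPM, and the beta cluster 64.8 and 64.3 TPM. The order of the clusters was the same in both libraries. With the C-type genes set aside, the remaining clusters were closer together: the numbered gamma genes summed to 114 and 106 TPM, the numbered alpha genes to 67.6 and 70.1 TPM. These sums grow with the number of genes, and the medians give the level of a typical gene. Those medians were 5.76 and 5.53 TPM for numbered alpha genes, 2.83 and 3.01 TPM for beta genes, 6.15 and 5.65 TPM for gamma A genes and 4.72 and 4.26 TPM for gamma B genes.

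Among the numbered alpha genes in the gene table, Pcdha5 was highest with 8.00 TPM in replicate 1 and 9.61 TPM in replicate 2. By mean it was followed by Pcdha4 (7.30 and 8.03 TPM) and Pcdha6 (7.52 and 6.81 TPM). The lowest were Pcdha8 (2.51 and 3.05 TPM) and the Pcdha11 gene with the identifier ENSMUSG00000007440.10 (3.31 and 3.79 TPM). In the gene table the highest and the lowest alpha mean stood 3.17-fold apart. The top of this order changed in the second quantification. There the Pcdha11 gene with the identifier ENSMUSG00000102206.5 led with a mean of 24.3 TPM, ahead of Pcdha5 with 12.5 TPM, and Pcdha4 had 6.79 TPM. From protein-coding transcripts alone, Pcdha4 had a mean of 6.10 TPM, below Pcdha9 with 6.81 TPM. Alpha proteins are known to reach the cell surface poorly on their own and to be carried there by other protocadherins, which these RNA levels do not address. The rank of alpha genes did not follow their position, with a Spearman rho between TPM and chromosomal order of 0.01 in replicate 1 and 0.05 in replicate 2 over 12 genes that share a library and an annotation.

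The beta genes were the lowest set. Pcdhb17 had 5.12 TPM in replicate 1 and 4.87 TPM in replicate 2, Pcdhb12 had 5.28 and 4.41 TPM, and Pcdhb7 had 4.56 and 4.29 TPM. These 3 led the set and still lay below the median numbered alpha gene in each library. At the low end were Pcdhb1, given above, and Pcdhb2 with 1.11 TPM in replicate 1 and 1.43 TPM in replicate 2, or 57.2 and 71.0 counts. Pcdhb1, Pcdhac2, Pcdhgc4 and Pcdhgc5 are known as the members whose promoters lack the conserved sequence element found at the other promoters of the family. In these libraries they included the lowest member and 3 of the 4 highest. With Pcdhb1 set aside, the highest and lowest of the other 21 beta means stood 3.93-fold apart. Toward the 3′ end of the cluster beta levels tended to be higher, with a Spearman rho with position of 0.55 in replicate 1 and 0.51 in replicate 2 over 22 genes, and of 0.48 and 0.44 over the 21 without Pcdhb1.

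Gamma A levels followed position along the chromosome. Pcdhga11 was highest with 11.3 TPM in each library, then Pcdhga12 with 10.3 TPM in replicate 1 and 9.27 TPM in replicate 2, and then Pcdhga10 with 8.61 and 6.86 TPM. The lowest by mean were Pcdhga2 (3.03 and 3.47 TPM) and Pcdhga1 (3.94 and 4.23 TPM), which stand first in the cluster, although Pcdhga5 (4.09 TPM) lay below Pcdhga1 in replicate 2. The 12 gamma A genes thus ran from low at the 5′ end to high at the 3′ end, with a Spearman rho between TPM and position of 0.93 in replicate 1 and 0.90 in replicate 2. The gamma A and gamma B genes are interleaved along the cluster, and for the 7 gamma B genes the rho was 0.04 and 0.21. Whether the rho values of these sets differ was not tested.

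In the gamma B set, Pcdhgb6 was highest by its mean, with 7.45 TPM in replicate 1 and 5.48 TPM in replicate 2, ahead of Pcdhgb7 (5.51 and 5.78 TPM) and Pcdhgb5 (5.54 and 5.26 TPM). In replicate 2, Pcdhgb7 was the highest of them. Pcdhgb8 was lowest with 3.18 and 3.05 TPM, and Pcdhgb1 next with 3.98 and 3.70 TPM. All TPM of Pcdhgb8 was assigned to its pseudogene-typed transcript, and its protein-coding transcript was listed at 0% of the gene in both libraries. The level of that locus is therefore RNA of the gene as annotated and gives no measure of a protein-coding form.

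Many neighbours in the order of levels did not differ beyond the spread of the 2 libraries. Of the 57 pairs of members next to each other by mean TPM, 8 had ranges that did not overlap. These steps stood above and below the bulk of the numbered genes and at a few places within it. At the top Pcdhgc5 exceeded Pcdhgc4 by 1.62-fold in the gene table and by 4.23-fold in the second table. In the gene table Pcdhgc3 exceeded Pcdhac2 by 1.55-fold, and Pcdhac2 exceeded Pcdhga11 by 2.94-fold. At the bottom Pcdhb2 exceeded Pcdhb1 by 16.9-fold, a ratio that rests on the 6 counts and 1 count of Pcdhb1. The order was otherwise much the same in both libraries, with a Spearman rho between replicates of 0.97 over 58 genes, which are not independent replicates.

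Much of the annotated sequence of alpha and gamma genes is held by more than 1 gene, and the tables carry a measure of the uncertainty in dividing reads. In the longest coding transcript of each beta gene, 92.3% to 100% of windows of 100 bases occurred in no other annotated gene. The corresponding shares ran between 39.4% (Pcdha7) and 46.9% (Pcdha12) for numbered alpha genes other than Pcdha4, and between 36.0% and 59.4% for gamma A genes. For gamma B genes they ran between 49.9% and 85.6%, and for C-type genes between 48.1% and 58.9%. The 85.6% is that of Pcdhgb8-202, which had 0 TPM. Pcdhgb8-201, which held the TPM of that gene, had 52.8%. Pcdha4 had 3.51% of windows to itself. The annotation places a further protein-coding gene, Gm42416, over the Pcdha4 variable exon with a 3′ end in the gamma constant region, and 43.9% of Pcdha4-202 windows also occur in genes outside the family. Pcdhga4, named here after its value was seen, had the low share of 36.0%: Pcdhga4-201 has 3157 nt in common with other members, and 1038 nt of these also lie in the transcript Pcdhgb1-202.

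The deposited posterior SD of the count, the uncertainty of dividing reads among genes, followed the same split. For members it is given as a percent of the quantifier's posterior mean count, which can differ from the expected count. It exceeded 1% of the count in replicate 1 for 38 of 58 members, beside 6.46% of detected nuclear protein-coding genes. For beta genes it had a median of 0.577% in replicate 1 and 0.539% in replicate 2, and it did not exceed 1.56%. For numbered alpha genes the median was 4.82% and 4.38%, for gamma A genes 3.89% and 3.66%, and for gamma B genes 5.30% and 4.72%. C-type genes with high counts were more precise: 1.07% and 0.985% for Pcdhgc5, 1.23% and 1.18% for Pcdhgc3, and 1.26% and 1.12% for Pcdhac2. Pcdhgc4 stood out among them with 4.09% and 3.48%, an SD of 113 and 109 counts, where the expected counts were 2773 and 3114.

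**Figure D2:**
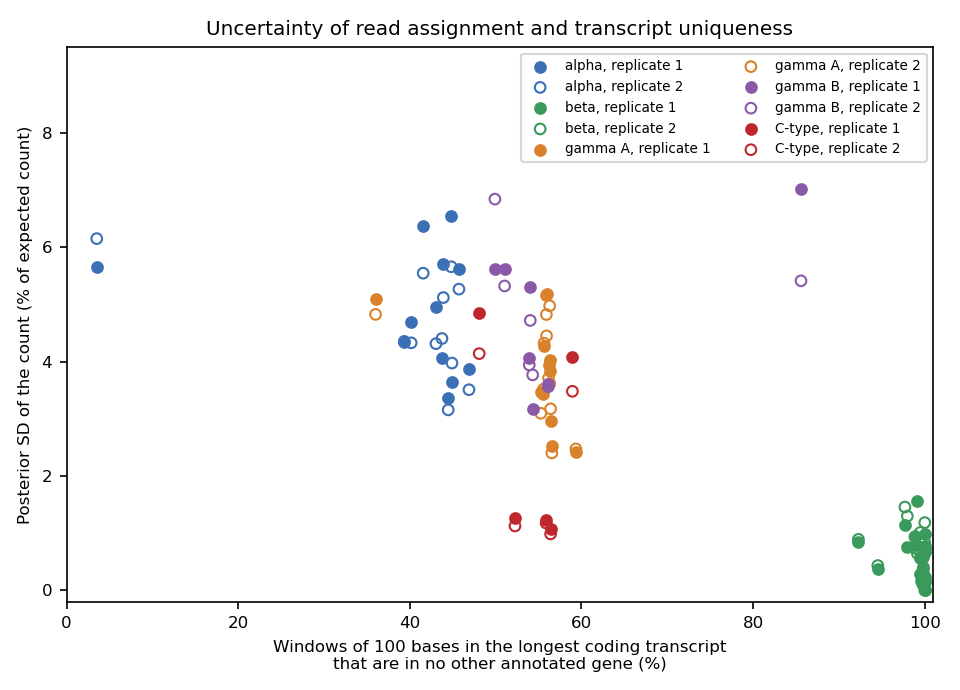
Posterior SD of each member's count against the percent of 100-base windows of its longest coding transcript found in no other annotated gene. The SD is a percent of the posterior mean count, although the axis label reads expected count. Filled points are replicate 1 and open points replicate 2. Beta genes sit at 92.3% to 100% unique windows and at most 1.56% SD, while numbered alpha and gamma genes sit between 2.40% and 7.02% SD. Pcdhgb8 is drawn at 85.6% from a coding transcript with 0 TPM, and the transcript that held its TPM has 52.8%.

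The transcripts behind Pcdhgc4 differed from those behind the other gamma C-type genes. In the first transcript table, 71.3% of Pcdhgc4 TPM in replicate 1 and 74.5% in replicate 2 was assigned to Pcdhgc4-203, an annotated protein-coding transcript of 2272 nt. That transcript had 36.1 TPM and 41.2 TPM, against 12.5 and 11.3 TPM for the full-length Pcdhgc4-201 of 5024 nt. Of its bases 2119 are the gamma constant exons and 153 are its own, and 6.95% of its 100-base windows occur in no other gene. A read from the other 93.05% of its windows could also come from other members.

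In the second deposited quantification, made directly from the reads, the same transcript was listed at 0 TPM in replicate 1 and 9.59 TPM in replicate 2, and Pcdhgc4-201 at 21.5 and 19.97 TPM. The gene Pcdhgc4 then stood at 22.6 and 31.6 TPM, beside 109 and 120 TPM for Pcdhgc5, 75.3 and 71.8 TPM for Pcdhgc3 and 45.2 and 52.2 TPM for Pcdhac2. By its mean, Pcdhgc4 ranked 4 in the family in the second table and 2 in the gene table. In replicate 1 of the second table it lay below the Pcdha11 gene with the identifier ENSMUSG00000102206.5, which had 24.1 TPM. With Pcdhgc4-203 left out of the first table, a setting chosen after the values were seen, Pcdhgc4 had 14.5 and 14.1 TPM, or 2.65-fold and 2.67-fold the median numbered gamma gene, and the C-type share was 42.9% and 44.5%. Which assignment is nearer to the RNA was not tested.

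Pcdhgc5 and Pcdhgc3 were mainly full-length. Pcdhgc5-201, of 4741 nt, had 60.8 TPM in replicate 1 and 65.1 TPM in replicate 2 in the first table, and 89.6 and 94.7 TPM in the second. A short coding transcript of 593 nt, Pcdhgc5-204, held 20.05 and 19.98 TPM in the first table and 17.0 and 23.8 TPM in the second, from 188 and 200 counts in the first. TPM divides by length, so a read on a transcript this short weighs more than a read on the full-length form. Pcdhgc3-201 held 51.0 and 49.5 TPM of its gene in the first table and 67.6 and 64.7 TPM in the second.

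**Figure D3:**
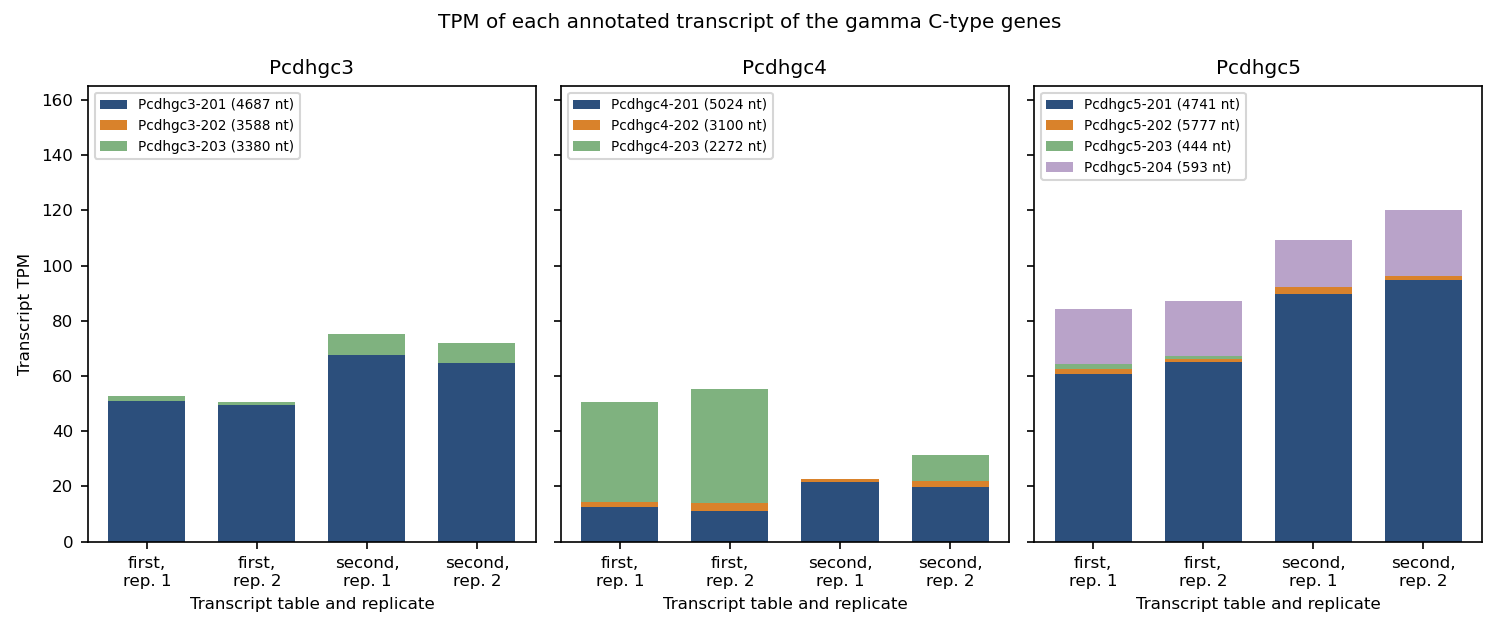
Stacked bars of transcript TPM for Pcdhgc3, Pcdhgc4 and Pcdhgc5 in the first and second transcript tables of each replicate, with each transcript's length in the legend. Pcdhgc4-203 makes 36.1 and 41.2 TPM of Pcdhgc4 in the first table and 0 and 9.59 TPM in the second, while Pcdhgc3-201 and Pcdhgc5-201 lead in both.

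Over the whole family, protein-coding transcripts made 95.7 ± 0.587% of TPM in the first table (SD, n = 2). Retained-intron transcripts made 2.95% in replicate 1 and 2.71% in replicate 2, and transcripts typed as targets of nonsense-mediated decay 0.487% and 0.114%. Of the 58 members, 13 had TPM in a transcript of another type in at least 1 library, while 36 have a single annotated transcript. The same share over all genes was not taken, so whether 13 is many or few cannot be said. The Pcdha11 gene with the identifier ENSMUSG00000102206.5 had one of the lowest coding shares, 29.7% in replicate 1 and 48.2% in replicate 2. Its retained-intron transcripts Pcdha11-205 and Pcdha11-206 had 2.18 and 1.80 TPM in replicate 1 and 1.43 and 1.46 TPM in replicate 2. Of the windows of retained-intron transcripts, 90.4% in Pcdha11-205 and 100% in Pcdhgc3-203 occurred in no other gene, but 17.3% in Pcdha4-203, which Gm42416 overlaps. Pcdhgb1 had 55.5% and 67.6% of its TPM in its coding transcript and the rest in Pcdhgb1-202.

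Pcdha6 shows how far the division among transcripts of a single gene can move while the gene's level holds. The gene had 7.52 TPM in replicate 1 and 6.81 TPM in replicate 2. Its coding transcript with the long constant exon, Pcdha6-202, had 3.21 and 2.58 TPM. The one with the split constant exon, Pcdha6-201, had 2.03 and 3.69 TPM. Pcdha6-203, typed as a target of nonsense-mediated decay, had 2.28 and 0.54 TPM. The deposited TPM intervals were wide: in replicate 1 they ran from 0.0652 to 5.29 for Pcdha6-202 and from 0.0636 to 5.79 for Pcdha6-201. The second table gave the coding transcripts in the opposite order in each library. There Pcdha6-202 had 0.563 TPM in replicate 1 and 7.08 TPM in replicate 2, and Pcdha6-201 had 5.75 and 0.144 TPM. The gene total in the second table was 10.22 and 10.01 TPM. The balance of the split and unsplit tails of Pcdha6 thus differed between the tables within the same library.

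The second quantification ranked the family much as the first did, with a Spearman rho over 58 genes of 0.98 in replicate 1 and 0.97 in replicate 2. Its TPM values were generally higher: the median ratio of second over first was 1.55 over 12899 detected nuclear protein-coding genes and 1.40 over the members. Among 56 members, 2 lay more than 2-fold from the median ratio of all genes, beside 1.38% of those genes. They were Pcdhgc4 (ratio 0.512) and the Pcdha11 gene with the identifier ENSMUSG00000102206.5 (ratio 4.32). That Pcdha11 gene had 5.66 and 5.60 TPM in the gene table and 24.1 and 24.5 TPM in the second table. A single transcript of 625 nt, Pcdha11-204, held 16.7 and 16.2 TPM of the gene in the second table on 68.4 and 74.8 estimated counts, and 0.46 and 0 TPM in the first table.

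The next largest ratios were small beside these. Pcdhb22 had a ratio of 1.64, Pcdhga12 of 1.63 and Pcdhb1 of 1.58, close to the median of all protein-coding genes. Pcdha4 stood below it with 0.886, and the second table gave 108 and 175 estimated counts to Gm42416, the overlapping gene that had 0 counts in the first. Gm38182, a noncoding gene that starts upstream of the gamma constant exons and ends within the last of them, had 0.47 and 1.46 TPM in the gene table and 97.7 and 62.4 TPM in the second. Gamma reads and Gm38182 reads cannot be told apart where their exons coincide.

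**Figure D4:**
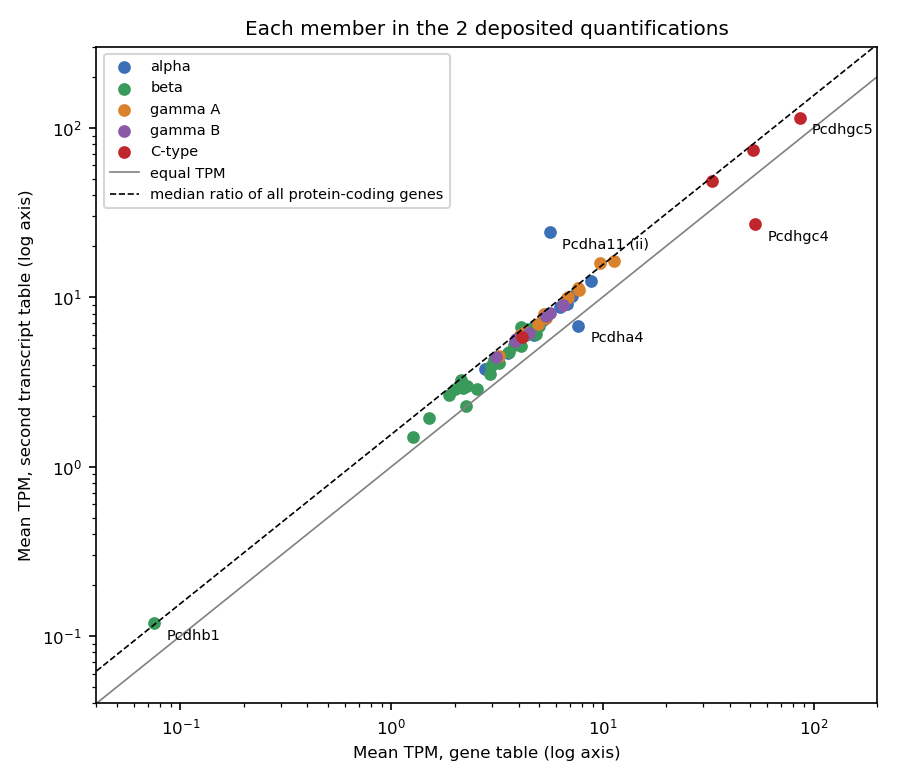
Mean TPM of each member in the second transcript table against its mean TPM in the gene table (both log axes), coloured by set; the solid line marks equal TPM and the dashed line the median ratio of 1.55 of all protein-coding genes. Most members lie near the dashed line, Pcdhgc4 lies below it at 52.9 and 27.1 TPM, and Pcdha11 (ii), ENSMUSG00000102206.5, lies above it at 5.63 and 24.3 TPM.

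No member that passed the count minimum differed more than 2-fold between the libraries. Of 57 members with at least 10 counts in 1 library, 0 were more than 2-fold higher in replicate 2 and 0 more than 2-fold lower, beside 1.44% and 2.46% of 18930 genes. In replicate 2, 32 members were higher and 25 lower, beside 49.9% of all genes with a log2 difference above 0. The median log2 difference, replicate 2 minus replicate 1, was 0.014 over the members and -0.00032 over all genes. The median size of the difference was 0.13 over the members and 0.14 over all genes. It was smaller, at 0.097, over protein-coding genes that averaged 100 counts or more, as 55 of the members did.

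Counted by cluster, 11 of 14 alpha genes, 12 of 21 beta genes and 9 of 22 gamma genes were higher in replicate 2. With the size factors of DESeq2, which raise the median of all genes to 0.016, the gamma count was 10 of 22 and the alpha count stayed 11 of 14. The largest differences were those of Pcdhgb6 (-0.44 on the log2 scale), Pcdhb3 (0.39) and Pcdhga9 (-0.36).

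The deposited TPM intervals of the 2 libraries lay apart for 2 members that were higher in replicate 2, beside 5.62% of all genes, and for 4 that were lower, beside 4.68% of all genes. The higher ones were Pcdha5 and Pcdhac2. Pcdhac2 had 30.6 TPM in replicate 1 with an interval of 28.3 to 30.7, and 35.8 TPM in replicate 2 with an interval of 33.3 to 35.8. The lower ones were Pcdhga7, Pcdhga9, Pcdhgb6 and Pcdhga10, which lie within a stretch of 7 neighbouring genes, from Pcdhga7 to Pcdhga10. The stretch did not move as a whole. Pcdhgb4 and Pcdhga8 within it were slightly higher in replicate 2 (0.079 and 0.026 on the log2 scale), and Pcdhgb5 was slightly lower (-0.078). Pcdhgb6 had 7.45 TPM in replicate 1 with an interval of 6.49 to 7.91, and 5.48 TPM in replicate 2 with an interval of 4.72 to 5.93. Pcdhga7 (8.47 and 6.81 TPM) and Pcdhga9 (7.67 and 5.94 TPM) were named after their values were seen. The level of confidence of these intervals is not given in the sources used here. The part of the striatal, choroid plexus, oligodendrocyte and inhibitory neuron RNA in these differences was not tested.

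**Figure D5:**
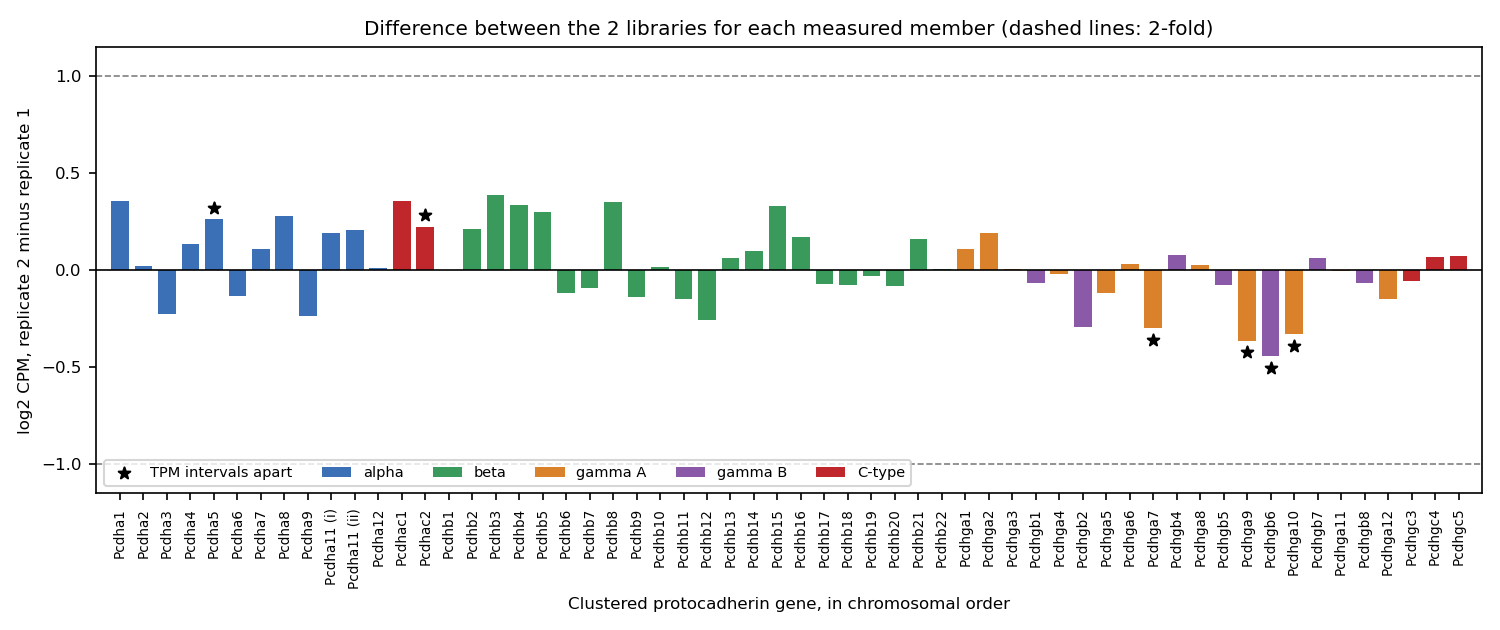
Difference in log2 CPM (replicate 2 minus replicate 1) for each of the 57 members with at least 10 counts in 1 library, in chromosomal order; bars are coloured by set, dashed lines mark 2-fold, a star marks members whose deposited TPM intervals lie apart, and Pcdhb1 has no bar because its 6 counts and 1 count fell below that minimum. All bars lie between -0.44 and 0.39.

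The factors known to act on protocadherin promoters were present. A list of 24 genes for CTCF, cohesin and its loader, DNA methylation and silencing had 23 at 1 TPM or more in both libraries, with a median of 21.2 TPM in replicate 1 and 21.8 TPM in replicate 2. Ctcf, which encodes the factor that bridges variable promoters and their enhancers, had 27.3 and 26.2 TPM. Highest were the DNA methyltransferase gene Dnmt3a (150 and 156 TPM), the histone methyltransferase gene Nsd1 (63.4 and 61.5 TPM) and Tet3, which encodes an enzyme that oxidises methylated cytosine (49.0 and 51.8 TPM). Zfp143 was low with 4.65 and 4.32 TPM. Dnmt3b, known to methylate the variable promoters during early development, had 0.42 TPM in replicate 1 and 0.50 TPM in replicate 2 and was the one gene of the list under 1 TPM.

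All 19 genes of a list of protein partners and processing enzymes reached 1 TPM in both libraries, with a median of 68.1 TPM in replicate 1 and 63.7 TPM in replicate 2. The highest were genes of the WAVE complex, which drives actin branching and is known to bind cytoplasmic tails of some protocadherins: Abi2 had 191 and 212 TPM, Cyfip2 had 169 and 186 TPM, and Nckap1 had 162 and 175 TPM. The kinase genes Ptk2 (55.2 and 57.7 TPM) and Ptk2b (103 and 91.2 TPM), whose products are known to be inhibited by the constant domains, were both present. The lowest were the receptor gene Ret (2.50 and 2.89 TPM) and the presenilin gene Psen2 (9.76 and 8.26 TPM). None of the 43 genes of these 2 lists differed more than 2-fold between the libraries, beside 3.9% of all genes. Of the 3 serotonergic marker genes, 0 reached 1 TPM in both libraries, with a summed level of 0.64 and 0.80 TPM.

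The non-clustered protocadherins, single genes outside the clusters, are the closest relatives of the family. A list of 10 of them held a like sum in fewer genes in the gene table. All 10 exceeded 1 TPM in both libraries and summed to 455 TPM in replicate 1 and 465 TPM in replicate 2. The 58 clustered members summed to 468.5 and 474 TPM. In the gene table the family as a whole therefore had about the summed level of these 10 genes, divided over more genes. In the second table the family summed to 619 and 630 TPM, which was below the sum of these 10 genes in each library. The median gene had 4.59 and 4.35 TPM among the clustered members, against 29.6 and 25.1 TPM among the non-clustered ones. In the gene table Pcdh1 was highest with 107 and 114 TPM, followed by Pcdh10 (94.0 and 97.5 TPM) and Pcdh9 (83.2 and 87.9 TPM). Pcdhgc5 of the clustered genes lay at the level of Pcdh9 there. In the second table Pcdhgc5 had 109 and 120 TPM, below Pcdh9 with 146 and 155 TPM. The lowest were Pcdh18 (4.69 and 3.95 TPM) and Pcdh20 (8.01 and 7.78 TPM). No test of this difference was made.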

How the data were processed

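Total RNA libraries of cortex were analysed from the authors' gene and transcript tables. According to the deposited description files, the gene table and first transcript table come from transcriptome alignments on mm10 (GRCm38) with GENCODE M21. Their deposited expected counts are estimated reads per feature, and the deposited TPM values are corrected for length and depth over all entries. The authors' FPKM values and their ratio of quartile variation were not used. The share of a gene's TPM per transcript as a deposited percent, the posterior SD of the count and the bounds of a TPM interval (held as signal values) came from the authors' quantifier. The second deposited transcript table, derived directly from the reads, gives estimated counts and TPM, which were summed per gene. Sources used here do not name aligner, quantifiers or strand setting. Alignment to a C57BL/6 genome may treat CAST reads differently, which was not tested.

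Members and lists were chosen with earlier results of these data known. Gene levels are compared as TPM, which is per length. Log2 differences (replicate 2 minus replicate 1) were taken in edgeR 4.0.16 under R 4.3.3 from rounded expected counts, using TMM factors and prior count 2, wherever a gene had 10 or more counts in 1 library. DESeq2 1.42.0 gave alternative size factors. With 1 group of 2 libraries no test was made. When a gene has 0 counts its level may still be as high as 3 counts (0.106 CPM in replicate 1, 0.0972 CPM in replicate 2). The log2 difference step was tested on simulated gene counts with known changes. The division of shared reads among genes and transcripts was not simulated. Named genes were all C-type members, the 3 highest and 2 lowest of each other set and of each list, members past 2-fold, the 5 with the largest ratio between quantifications, and the 3 highest other genes on the same strand within the clusters; other names were chosen after their values were seen. Uniqueness was counted in windows of 100 bases of GENCODE M21 transcripts, same strand. RefSeq starts came from its GRCm38.p6 table. Sequences of members were not used here. Tables and plots were made in Python 3.11.15 (numpy 2.4.6, pandas 2.3.3, scipy 1.17.1, matplotlib 3.10.9).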

Additional observations from a re-analysis of the deposited data

How the results depend on the processing

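No paired analysis was possible because both libraries belong to 1 group. The alpha, beta and gamma sums were 163, 86.4 and 375 TPM in the second transcript table, 228, 138 and 644 TPM after scaling TPM to nuclear protein-coding genes, and 369, 175 and 796 CPM without division by length. From protein-coding transcripts alone the alpha sum was 99.8 TPM and the gamma sum 287 TPM. The order gamma, alpha, beta held in these settings and without either replicate. The C-type share was 43.2% in the second table, 45.1% by counts and, in a setting added after seeing the data, 43.7% without Pcdhgc4-203. The protein-coding share was 93.9% in the second table. A level of 5 TPM in both libraries was reached by 23 members, and the share over all genes at that level was not taken. The median log2 difference was 0.031 with DESeq2 size factors and 0.0026 for members that averaged 100 counts or more. With no filter on low counts, 1 member passed 2-fold (Pcdhb1, on 6 counts and 1 count). Beyond the construction of each setting, the cause of these shifts was not tested. Without either replicate, the detected members stayed at 57 and the C-type share was 47.3% to 49.3%. Of the 58 single levels, 54 were higher in the second table by more than 1 SD and 2 were lower. Relative to the median ratio of all protein-coding genes, 1.55, this turns: 4 members lay above it and 54 below. For 10 and 12 of the 31 numbered alpha and gamma genes in replicates 1 and 2, the posterior SD exceeded the counting error (the square root of the count).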

Other observations

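The bounds of the clusters hold 27 other annotated genes. On the plus strand the highest by mean TPM was Gm36858, an unprocessed pseudogene between Pcdha7 and Pcdha8, with 126 counts in replicate 1 and 130 counts in replicate 2, or 2.89 and 2.79 TPM. Its level was close to that of its neighbour Pcdha8 (2.51 and 3.05 TPM). Next came the pseudogenes Gm18150, with 14 and 24 counts (1.35 and 2.17 TPM), and Gm19035, with 33 and 49 counts (1.53 and 1.90 TPM).

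Of 12 genes annotated on the minus strand as antisense or noncoding transcripts, 1 reached 1 TPM in a library: Gm26672 had 55 and 36 counts (1.70 and 0.91 TPM). All 12 together had 111 counts in replicate 1 and 89 counts in replicate 2. Whether counting used strand is not stated, and the division of reads between these genes and protocadherin genes on the other strand was not tested. Gm37446, which overlaps Pcdhb12 on the minus strand, had 0 counts in each library of the gene table. Pcdhb12 had 294 and 263 counts there. The second table gave Gm37446 15 and 3.06 estimated counts. Taf7, a gene for a subunit of the general transcription factor TFIID that lies on the minus strand between the beta and gamma clusters, had 2.96 and 2.97 TPM. Slc25a2, a mitochondrial carrier gene beside it, had 0.21 and 0.43 TPM on 5 and 11 counts.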
